A study of Mus musculus with 12 samples.

Results

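The aminoacyl-tRNA synthetase genes were followed in BCR-ABL1 transformed mouse pre-B cells, a model of B cell acute lymphoblastic leukaemia (B-ALL), with and without the GSK3 inhibitor LY2090314. Members were the genes of the deposited expression table whose symbol is 1 capital letter followed by ars, alone or with a 1 or 2, together with Farsa, Farsb, Eprs and Tarsl2. This rule found 38 genes, and all 38 had a mean level of at least 3 and entered the test among 11536 genes of the 41444 in the table. The rule uses gene symbols and the limit on the mean level, not the difference between groups. By their known location, 21 were counted as cytosolic enzymes and 17 as mitochondrial ones. Gars and Kars, which serve both compartments, were counted as cytosolic only.

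All samples compared carry floxed Ctnnb1 alleles, labelled Ctnnb1 fl/fl + BCR-ABL1, and come from bone marrow pre-B cells grown ex vivo with IL7, transformed by retroviral BCR-ABL1 and then kept without IL7. Both groups carry the ERT2 vector, which has no Cre, so that β-catenin stays intact, and both received 4-OHT, the tamoxifen metabolite, at 1 µM for 2 days. The control group had no further treatment, and the treated group had LY2090314 at 40 nM for 1 day (a figure legend of the study gives a shorter exposure). There were 3 samples in each group, called control samples 1 to 3 and treated samples 1 to 3 here in the order of the table, which pairs nothing. The study calls its replicates mice, but the names of treated samples 1 and 2 begin with the same number, whose meaning is not given. The names then differ by a letter, A or B, and by further numbers. No label says whether these samples are separate cultures. If they are not, p-values measure spread that is in part technical. The values are regularized log2 (rlog) values, that is, read counts scaled for library size on a log2 scale, with genes of few reads drawn towards their own mean. They are not divided by transcript length, so levels are compared between samples and not between genes. The table holds no read counts, and the depth of each library is unknown.

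Aminoacyl-tRNA synthetases join each amino acid to its tRNA and so set the supply of charged tRNA for translation. Mammals use separate nuclear genes for most cytosolic and mitochondrial enzymes, the latter usually named with a 2, while Gars and Kars each serve both compartments. In the cytosol, several synthetases are held with the scaffold proteins Aimp1, Aimp2 and Eef1e1 in the multi-synthetase complex. Uncharged tRNA activates the kinase GCN2 (Eif2ak4), which phosphorylates the initiation factor eIF2 and favours translation of ATF4, a factor that induces amino acid transporters, biosynthetic enzymes and many cytosolic synthetases. GSK3β marks β-catenin for degradation, so an inhibitor of the kinase lets β-catenin accumulate.

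All 9 B-lineage markers checked were detected, and 8 of these 9 were lower with LY2090314, while none passed as higher. Past the same adjusted p of 0.05, 25.3% of all genes tested were lower and 24.8% higher. Over these 9 genes the mean rlog value per sample was 11.62 to 11.65 in control and 10.67 to 10.82 in treated samples, with differences from −1.93 for Rag1 to 0.23 for Cd79a, which did not pass the threshold. None of the 6 T cell, 4 erythroid or 3 stromal markers reached a mean of 3, and of 6 myeloid markers only Lyz2 did, which rose by 0.53 from values of 5.68 to 5.91 in control to values of 6.29 to 6.41 in treated samples. Mpo, Elane, Hba-a1, Col1a2 and Col3a1 were listed at 0. Whether the lower B-lineage genes have a part in the synthetase results was not tested. In bulk RNA, fewer cells of a type and less RNA per cell cannot be told apart.

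Synthetase transcripts were lower with LY2090314 in most cases, by modest amounts. Of the 38 genes, 23 fell and 0 rose past an adjusted p of 0.05 (limma on all 11536 genes with Benjamini-Hochberg adjustment), while 25.3% of all genes tested fell and 24.8% rose, together 50.1%. At an unadjusted p under 0.05, 1 of the 38, Aars2, was higher. The median log2 difference was −0.26 over the 38 genes, against 0.01 over all genes tested, and 32 of the 38 differences lay below 0, a share of 84.2% against 48.6% of all genes. Among the genes named here the falls ran from −0.16 for Hars to −0.69 for Cars2, which is 10.6% to 37.9% less transcript on the linear scale. In 24 synthetase genes every treated sample lay under every control sample, and in 0 every treated sample lay above, where 29.5% of all genes lay apart in the lower and 29.1% in the higher direction. An exact two-sided permutation test of a single gene gives at best p = 0.10 with 3 samples against 3. The number of falls was 17 without control sample 1, control sample 2 or treated sample 1. Qars rose by 0.31 (adjusted p = 0.033) without treated sample 1, and Aars2 rose by 0.29 without control sample 3 and by 0.28 without treated sample 3.

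**Figure D1:**
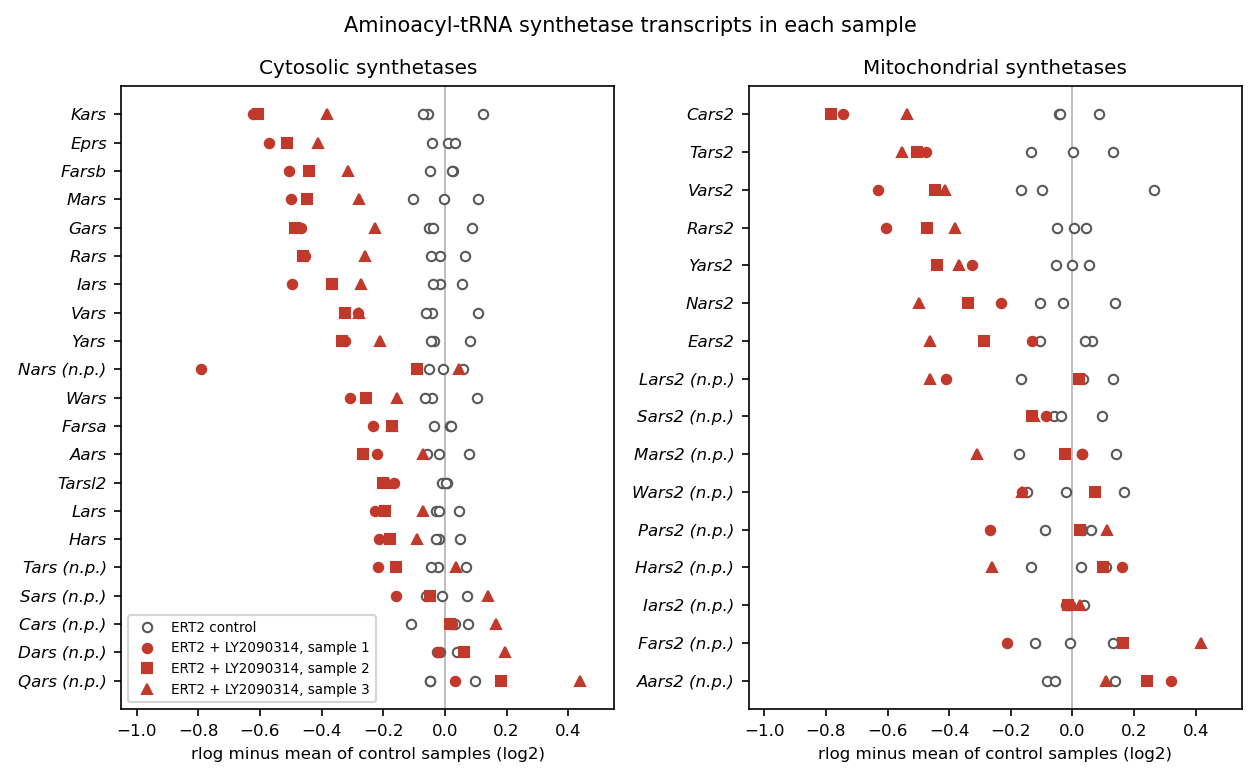
rlog value of each synthetase in each sample minus the mean of the 3 control samples, on a log2 scale, for 21 cytosolic (left) and 16 mitochondrial (right) enzymes, ordered by their difference. Open circles are control samples, filled symbols are the 3 treated samples, and n.p. marks genes that did not pass an adjusted p of 0.05. Most filled symbols lie left of the open ones, while those of Dars, Qars, Aars2 and Fars2 lie mostly to the right.

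**Figure D2:**
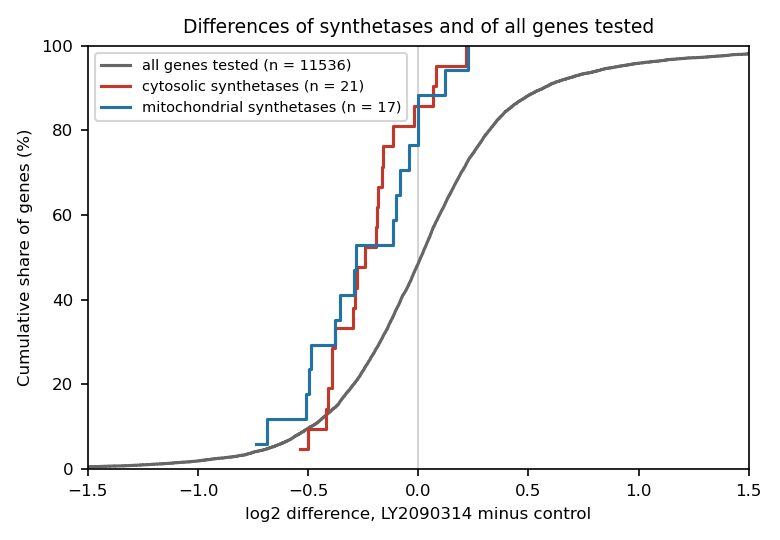
Cumulative share of genes, in percent, against the log2 difference between treated and control samples, for 11536 genes tested and for both kinds of synthetase. At a difference of 0 the curve of all genes is at 48.6%, and both curves of synthetases lie above it; the axis is limited to differences between −1.5 and 1.5.

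The 8 synthetases of the multi-synthetase complex include the 2 largest cytosolic falls. Of these, 6 fell and 2, Dars and Qars, did not pass the threshold, with a median difference of −0.38. Kars (ENSMUSG00000031948, chr8:111993443-112011323 of GRCm38), the lysine enzyme of both compartments, had rlog values of 12.43, 12.41 and 12.60 in control samples and 11.86, 11.87 and 12.10 in treated samples. All treated samples of Kars were under the controls, with treated sample 3 nearest to them, and the difference was −0.54 (standard error 0.082, adjusted p = 0.0011). Eprs (ENSMUSG00000026615, chr1:185363044-185428360), a fusion of the glutamate and proline enzymes, was at 13.26, 13.20 and 13.28 in control and at 12.67, 12.73 and 12.83 in treated samples. Its fall of 0.50 (standard error 0.057, adjusted p = 0.00023) had the smallest adjusted p of the cytosolic enzymes and left the groups well apart.

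Among the other enzymes of the complex, Mars, the methionine enzyme that also charges the initiator tRNA, went from 11.44, 11.54 and 11.65 to 11.04, 11.09 and 11.26. Its difference was −0.41 (standard error 0.076, adjusted p = 0.0030), and its gene shares 68 bases of exon with Ddit3 on the other strand, whose difference of 0.18 did not pass. Rars, the arginine enzyme, was at 11.46, 11.43 and 11.54 in control and 11.03, 11.02 and 11.22 in treated samples, a fall of 0.39 (adjusted p = 0.0019). Iars, for isoleucine, fell by 0.38 (adjusted p = 0.0022) and Lars, the leucine enzyme, also known as a leucine sensor of the mTORC1 pathway, by 0.16 (adjusted p = 0.039). The call of Lars was lost in 5 of the 6 fits that each left out a sample. Qars, for glutamine, had 10.41, 10.41 and 10.55 in control and 10.49, 10.64 and 10.89 in treated samples. Here treated sample 1 lay among the controls and the other treated samples above them, and the difference of 0.22 did not pass (95% interval −0.02 to 0.45, adjusted p = 0.11). Dars, for aspartate, differed by 0.08 (95% interval −0.07 to 0.22, adjusted p = 0.33).

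Outside the complex, 9 of 13 cytosolic synthetases fell, where 25.3% of all genes tested fell. Farsb (ENSMUSG00000026245, chr1:78417975-78488897), the β subunit of the phenylalanine enzyme, was at 11.15, 11.07 and 11.14 in control and 10.61, 10.68 and 10.81 in treated samples, a difference of −0.42 (standard error 0.060, adjusted p = 0.00074). Farsa, the α subunit of the same enzyme, fell by 0.19 (adjusted p = 0.014), so both subunits were lower. Gars (ENSMUSG00000029777, chr6:55038007-55079500), the glycine enzyme of both compartments, went from 12.55, 12.56 and 12.69 to 12.13, 12.11 and 12.38, a difference of −0.39 (standard error 0.080, adjusted p = 0.0045). As for Kars, treated sample 3 of Gars was nearest to the controls.

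Smaller falls were those of Vars (valine, −0.30), Yars (tyrosine, −0.29), Wars (tryptophan, −0.24), Aars (alanine, −0.19), Tarsl2 (a second threonine enzyme, −0.18) and Hars (histidine, −0.16), with adjusted p values from 0.0038 for Yars to 0.045 for Aars. Aars shares 1326 bases of annotated exon with Exosc6 on the same strand, which is not analysed here, and Hars shares 195 bases with Hars2 on the other strand. Tarsl2 shares 120 bases with Tm2d3 on the same strand, whose difference of 0.00 did not pass. The calls of Aars and Hars were lost in 5 of the 6 fits without a sample and that of Tarsl2 in all 6, so these 3 falls are the least secure of the group. The remaining cytosolic genes did not pass. They were Nars (asparagine, −0.28), Tars (threonine, −0.11), Sars (serine, −0.02) and Cars (cysteine, 0.07). Nars rested on a single low library, with 10.09 in treated sample 1 against 10.79 and 10.93 in the other treated and 10.83, 10.87 and 10.94 in control samples. Without that library its difference was −0.02. Tars fell by 0.19 (adjusted p = 0.018) when treated sample 3 was left out.

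The mitochondrial enzymes held both large falls and several genes whose groups overlapped. Of 17 genes 8 fell (47.1%), 0 rose and 9 did not pass, with a median difference of −0.28. Over all genes tested 25.3% fell and 24.8% rose. Cars2 (ENSMUSG00000056228, chr8:11513977-11550783), for cysteine, went from 7.79, 7.79 and 7.91 to 7.08, 7.05 and 7.29, a difference of −0.69 (standard error 0.095, adjusted p = 0.00062), with every treated sample well below the lowest control. Cars2 shares 422 bases of exon with Naxd on the other strand, and Naxd rose by 0.60 (adjusted p = 8.2e-05).

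Tars2, the mitochondrial threonine enzyme, was at 9.70, 9.84 and 9.97 in control and 9.36, 9.33 and 9.29 in treated samples, which lay close together. Its difference was −0.51 (standard error 0.074, adjusted p = 0.00082). Vars2, for valine, had 9.35, 9.42 and 9.79 in control and 8.89, 9.07 and 9.11 in treated samples, with a control spread (SD 0.23) that made its difference of −0.50 less precise (standard error 0.119, adjusted p = 0.0097). Rars2, for arginine, went from 9.46, 9.37 and 9.43 to 8.81, 8.95 and 9.04, a fall of 0.49 (adjusted p = 0.00093). Yars2, for tyrosine, went from 8.63, 8.58 and 8.68 to 8.30, 8.19 and 8.26, a fall of 0.38 (adjusted p = 0.0025). In both the highest treated sample stayed under the lowest control.

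Nars2 (asparagine) fell by 0.36 (adjusted p = 0.020), a call lost without control sample 1 (adjusted p = 0.070), and Ears2 (glutamate) fell by 0.29 (adjusted p = 0.048), a call lost in 5 of the 6 fits without a sample. For Lars2 (leucine, −0.28) treated sample 2, at 9.93, lay among the controls, whereas treated samples 1 and 3 were at 9.50 and 9.45; it did not pass, but fell by 0.44 (adjusted p = 0.0098) without treated sample 2. Sars2 (serine, −0.11) did not pass although its groups did not overlap. Mars2 (methionine, −0.10), Wars2 (tryptophan, −0.09), Pars2 (proline, −0.04) and Fars2 (phenylalanine, 0.12) overlapped between groups and did not pass. Aars2, for alanine, had 8.16, 8.19 and 8.38 in control and 8.56, 8.48 and 8.35 in treated samples, a difference of 0.22 with an adjusted p of 0.073.

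The 3 genes nearest to no difference were Iars2, Hars2 and Sars. Iars2, the mitochondrial isoleucine enzyme, was at 11.00, 10.95 and 10.94 in control and 10.95, 10.95 and 10.98 in treated samples, and its 95% interval of −0.10 to 0.10 was the narrowest of the 3. The sign of its difference of 0.00 turned under centring on library medians. The Iars2 gene shares 2034 bases of exon with Rab3gap2 on the other strand, whose difference of −0.10 did not pass. Hars2, for histidine, had 8.60, 8.68 and 8.44 against 8.73, 8.67 and 8.31 (95% interval −0.28 to 0.28), and Sars had 11.34, 11.39 and 11.47 against 11.24, 11.35 and 11.54 (95% interval −0.21 to 0.16). For Hars2 and Sars the intervals still allow falls as large as those of several genes that passed.

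Cytosolic and mitochondrial enzymes for the same amino acid were set side by side as a description, since 3 samples against 3 cannot pass the threshold in an exact test of a pair. The difference between both genes was taken within each sample in 18 pairs, which leave out the enzymes without a partner (Gars, Kars, Qars and Tarsl2), use Eprs against both Ears2 and Pars2, and use Fars2 against both subunits of its cytosolic counterpart. In 7 of the 18 pairs the groups did not overlap, a smaller share than the 58.6% of single genes over all genes tested, and the share for differences between other genes was not computed. With LY2090314 the within-sample difference shifted down, towards less of the mitochondrial transcript relative to its partner, in 3 of these and up in 4. Cars2 minus Cars went from −2.57, −2.42 and −2.48 in control to −3.26, −3.29 and −3.19 in treated samples, a shift of −0.76 on the log2 scale. Tars2 minus Tars shifted by −0.40, and in both of these only the mitochondrial gene had passed the test. In the opposite direction, Fars2 minus Farsb shifted by 0.54, Pars2 minus Eprs by 0.45, Aars2 minus Aars by 0.41 and Iars2 minus Iars by 0.38, and here only the cytosolic gene had passed. The exact two-sided permutation test gave its smallest possible value of p = 0.10 for each of the 7, and 0.26 after adjustment over the 18 pairs, so it cannot tell these pairs from no shift. Counts of falls by compartment, 15 of 21 cytosolic and 8 of 17 mitochondrial genes, where 25.3% of all genes tested fell, were not tested against each other.

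**Figure D3:**
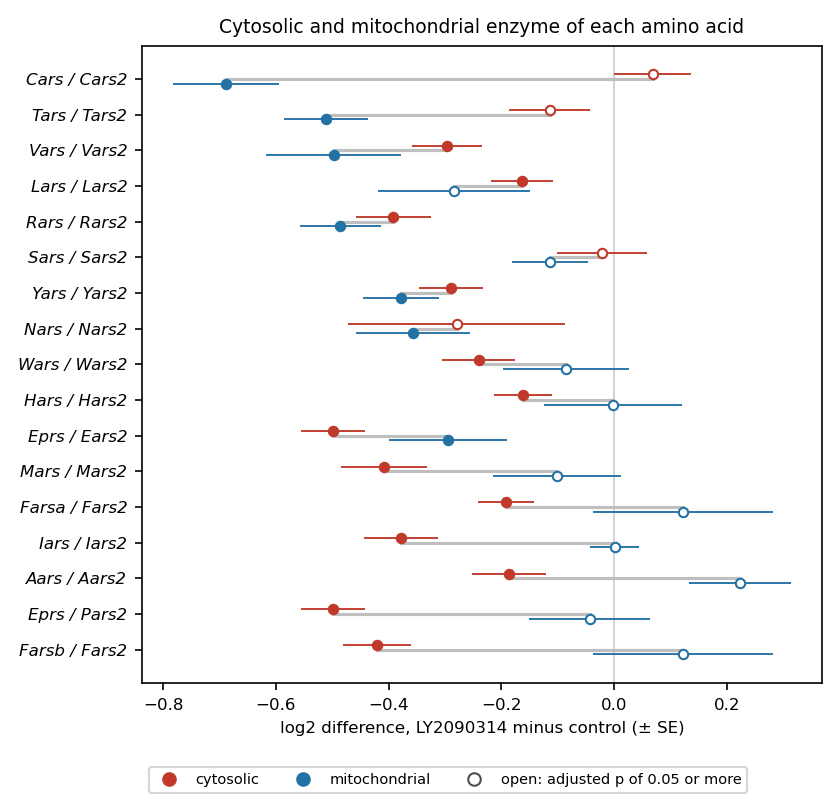
Log2 difference between treated and control samples, with its standard error, of the cytosolic (red) and mitochondrial (blue) enzyme in 17 pairs for the same amino acid. Filled points passed an adjusted p of 0.05 and open ones did not. At the top the mitochondrial enzyme (Cars2, −0.69) and at the bottom the cytosolic enzyme (Farsb, −0.42) has the lower difference of its pair.

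By structure, synthetases form a class I and a class II, which differ in the fold of their catalytic domain. Of 19 class I genes (counting the fusion Eprs here) 13 fell, with a median of −0.29, and of 19 class II genes 10 fell, with a median of −0.18. Of 13 cytosolic synthetases written down as known ATF4 targets from general knowledge 9 fell (69.2%), with a median of −0.28. That share was near the 71.4% of all 21 cytosolic synthetases, while 25.3% of all genes tested fell. Neither contrast was tested.

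Treated samples were not alike for the cytosolic enzymes. In 20 of the 21, treated sample 3, the library outside the pair with a shared number, was the highest of the 3 treated samples, which held for 43.0% of all genes tested. The median distance from the control mean over the 21 genes was −0.28, −0.26 and −0.17 in treated samples 1 to 3. Control sample 3 was likewise the highest control for 18 of the 21, against 42.3% of all genes. The mitochondrial genes had a different order, with medians of −0.23, −0.13 and −0.37 in treated samples 1 to 3. Treated sample 1 was the highest for 9 of 17 (52.9%, against 26.4% of all genes) and treated sample 3 for 6 (35.3%, against 43.0%). Without treated sample 1, 9 cytosolic genes fell in place of 15, and with the pair of shared number counted as 1 sample 10 did.

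Promoter sequence was read for the members because so many moved together. RefSeq windows of GRCm38.p6, from 250 bases before to 50 bases after a transcription start, were matched by symbol to 28 of the 38 genes. The other 10, among them Cars, Hars, Pars2, Rars, Vars and Wars, were not matched. The letters searched on both strands were the E-box CACGTG, which MYC with MAX and other basic helix-loop-helix factors bind, and TGATGNAAT, the amino acid response element bound by ATF4 with C/EBP partners. The motifs do not overlap each other in any member. CACGTG was found in 5 of 28 genes (17.9%), which were Aars, Ears2, Farsb, Iars and Tars, and in 7.15% of 32851 windows of all genes. TGATGNAAT was found in 3 of 28 (10.7%), among them Gars and Iars, and in 0.965% of all windows. Of the 28 genes matched, 17 fell, among them 4 of the 5 with CACGTG and all 3 with TGATGNAAT, and Tars, with CACGTG, did not pass. With looser letters the shares were 78.6% of members and 72.3% of all windows for CANNTG, and 17.9% and 3.95% for TGATGNAAN. The shares of members count genes and the shares compared count windows, so the units differ where a gene has more than 1 window. A match describes letters only, and no binding was measured.

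Windows that hold a match follow, to show its place in each gene, at 30 bases each on the strand of the gene with the matching letters in capitals. Aars (chr8:111033684-111033713, plus strand) has CACGTG at −146 to −141 from the start. Iars (plus strand) has CACGTG at −69 to −64 (chr13:49682049-49682078) and the response element, on the other strand, at 7 to 15 (chr13:49682126-49682155). Ears2 (chr7:122067048-122067077, minus strand) and Tars (chr15:11399622-11399651, minus strand) hold CACGTG just past the start, at 22 to 27 and 20 to 25.
Aars E-box: agtcaaccctgtCACGTGacactccatgtc
Iars E-box: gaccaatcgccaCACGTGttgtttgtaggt
Iars response element: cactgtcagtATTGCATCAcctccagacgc
Ears2 E-box: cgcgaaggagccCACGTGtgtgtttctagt
Tars E-box: tccgcctgtggcCACGTGgcgcacgcgcag

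For Farsb and Gars, which fell by 0.42 and 0.39, the 250 bases before the start are given whole, since each holds a single match close to the start. The first, chr1:78488898-78489147 on the minus strand, has CACGTG at −39 to −34. The second, chr6:55037751-55038000 on the plus strand, has the response element on the other strand at −31 to −23.
Farsb upstream: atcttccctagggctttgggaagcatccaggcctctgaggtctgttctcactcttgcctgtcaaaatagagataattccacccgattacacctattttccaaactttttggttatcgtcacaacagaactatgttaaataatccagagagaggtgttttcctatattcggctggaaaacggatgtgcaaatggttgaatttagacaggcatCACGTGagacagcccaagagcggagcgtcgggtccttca
Gars upstream: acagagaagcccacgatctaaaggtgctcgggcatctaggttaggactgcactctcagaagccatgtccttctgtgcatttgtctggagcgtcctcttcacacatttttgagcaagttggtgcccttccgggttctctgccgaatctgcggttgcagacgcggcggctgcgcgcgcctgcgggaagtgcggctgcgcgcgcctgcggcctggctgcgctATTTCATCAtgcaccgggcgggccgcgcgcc

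Genes that work next to the synthetases gave a mixed picture. Of the scaffolds of the multi-synthetase complex, Aimp2 was at 9.33, 9.37 and 9.59 in control and 8.96, 8.78 and 9.05 in treated samples, a fall of 0.50 (adjusted p = 0.0035). Aimp1 went from 10.32, 10.41 and 10.60 to 10.00, 10.06 and 10.28, a fall of 0.33 (adjusted p = 0.020). Eef1e1 had 9.25, 9.24 and 9.09 against 8.95, 9.10 and 9.24, with overlapping groups and a difference of −0.10 that did not pass. In all, 2 of the 3 scaffolds and 6 of the 8 enzymes they hold fell. Of all 21 cytosolic synthetases 15 fell, and of all genes tested 25.3% did. Whether the complex differs from the other cytosolic enzymes was not tested.

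Of 8 genes for editing of mischarged tRNA and release of peptidyl-tRNA, 3 fell (37.5%) and 1 rose, with a median of −0.07. Of all genes tested, 25.3% fell and 24.8% rose. Aarsd1, a free-standing editing protein for alanyl-tRNA, fell by 0.93 (adjusted p = 0.00019), more than any synthetase. Dtd1, the D-aminoacyl-tRNA deacylase, fell by 0.70 (adjusted p = 0.00017), and Ankrd16, a cofactor of Aars in proofreading, rose by 0.76 (adjusted p = 0.048) with overlapping groups. Of the 4 partners of mitochondrial charging, Gatb (−0.56) and Gatc (−0.34), subunits of the amidotransferase that makes mitochondrial glutaminyl-tRNA, fell, whereas Qrsl1 (0.01), the remaining subunit, and Mtfmt (0.15), the formylase of the initiator tRNA, did not pass. In the selenocysteine pathway 4 of 6 genes fell and 0 rose, with the largest falls in Pstk (−0.59), the kinase that acts on seryl-tRNA of selenocysteine, Eefsec (−0.38), the elongation factor of this tRNA, and Sephs2 (−0.27), a selenophosphate synthetase.

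Among 26 genes tested for tRNA export and maturation 10 fell (38.5%) and 2 rose, with a median of −0.18. For this and the next lists, the shares over all genes tested were 25.3% lower and 24.8% higher. Among the largest changes were falls of Pop1 (−0.66), a subunit of RNase P, and of Elac2 (−0.50), the 3′ processing nuclease. Without control sample 2, treated sample 2 or treated sample 3, 1 gene of this list rose in place of 2. Xpot, the exportin of tRNA, lay between 2.73 and 2.97 in all samples, under the limit of 3, and was not tested. Of 9 cytosolic elongation and termination genes 4 fell and 1 rose, with the largest falls in Eif5a (−0.66), Eef1d (−0.57) and Gspt1 (−0.46), while Eef1b2 rose by 0.42. Of 10 mitochondrial translation factors 4 fell and 0 rose, with the largest falls in Tufm (−0.37), Gfm1 (−0.30) and Guf1 (−0.25).

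The list of amino acid response genes, written for the ATF4 pathway, did not move in 1 direction. Of 34 genes of this list 30 were tested, 13 fell (43.3%) and 9 rose, with a median of −0.11. Over all genes tested 25.3% fell and 24.8% rose. Atf4 itself was at 11.18, 11.22 and 11.08 in control and 11.36, 11.29 and 10.94 in treated samples, with overlapping groups and a difference of 0.03 (adjusted p = 0.81). Asns, the asparagine synthetase, went from 11.07, 11.13 and 11.28 to 10.70, 10.68 and 11.00, a fall of 0.36 (adjusted p = 0.014). Chac1, a glutathione-degrading enzyme, rose by 0.41 (adjusted p = 0.0068). Ddit3 (0.18) and Trib3 (0.00), which encode a factor and a pseudokinase of the same response, did not pass.

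The changes of largest size in this list were rises of Vldlr, a lipoprotein receptor, by 4.01, of Stc2, a secreted glycoprotein, by 1.64 and of Ddit4, an inhibitor of mTORC1, by 1.18. Among those that fell, named after their values were seen, were Phgdh (−0.67) and Psph (−0.29) of serine synthesis, Shmt2 (−0.51) and Mthfd2 (−0.40) of mitochondrial one-carbon metabolism and Pycr1 (−0.46) of proline synthesis, while Psat1 (−0.23) of serine synthesis did not pass. Without treated sample 1, 7 genes of the list fell in place of 13. Among 9 eIF2 kinases and regulators 2 fell (22.2%) and 2 rose, near the shares of all genes tested (25.3% lower, 24.8% higher). Eif2ak4, the kinase GCN2 that senses uncharged tRNA, had 9.54, 9.46 and 9.38 against 9.41, 9.30 and 9.31 and did not pass (difference −0.12). Eif2ak3, the kinase PERK of the endoplasmic reticulum, rose by 0.83, and Impact, an inhibitor of GCN2 activation, rose by 0.62 (adjusted p = 0.047) with overlapping groups, while Eif2s1, the α subunit of eIF2 that these kinases phosphorylate, fell by 0.45.

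**Figure D4:**
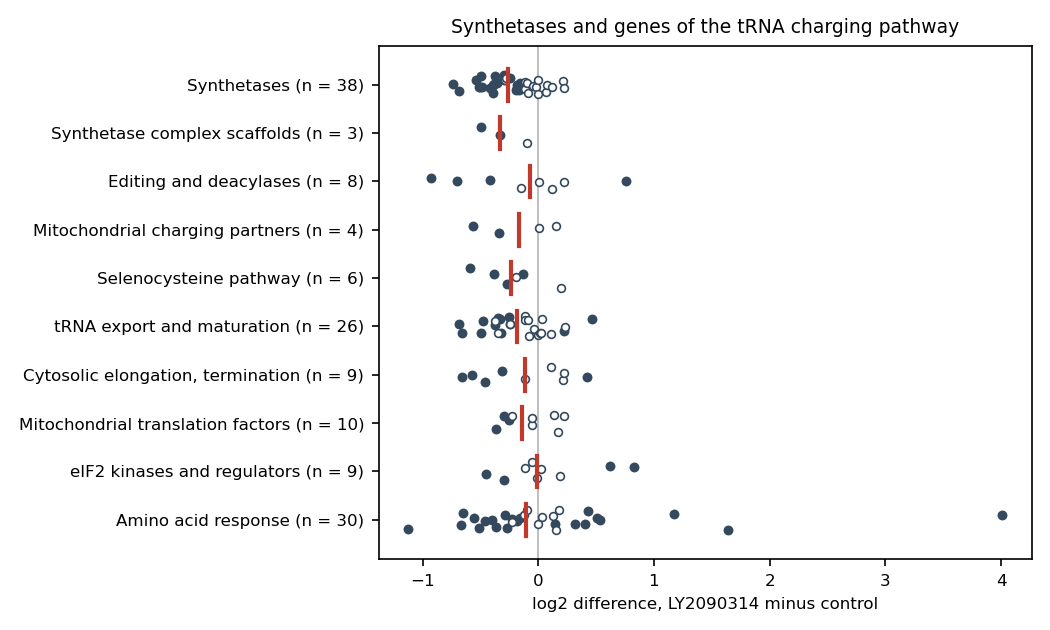
Log2 difference between treated and control samples for each gene of the synthetases and of 9 lists of neighbouring function. Filled points passed an adjusted p of 0.05, open ones did not, the red bar is the median, and heights within a row are random. The synthetases have their filled points all below 0, while the amino acid response has filled points from −1.12 to 4.01.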

How the data were processed

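Polyadenylated RNA was sequenced from stranded libraries as paired reads. Per the labels and the study's methods, the authors ran Salmon for quantification and STAR for alignment, on GRCm38 and GENCODE vM24, and modelled counts in DESeq2 1.30.1. The authors deposited 1 table of log2 values, named as rlog, for 41444 genes. Which samples and options entered the rlog step, and whether counting used strand, is not given in the sources used here. Of 12 columns, 6 were matched to a group by name (3 ERT2 and 3 ERT2 with LY2090314), and 6 whose names combine Cre and LY were not used.

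Here, 41157 gene identifiers were given a symbol, genes with a mean of at least 3 over the 6 samples were kept (11536), and limma 3.58.1 under R 4.3.3 tested treated against control samples (lmFit, then eBayes with a mean-variance trend, two-sided). P-values were adjusted by Benjamini-Hochberg over these genes, and 0.05 was the threshold. Intervals are 95% intervals of that fit. The script was tested on simulated data. Positions and exon overlaps are those of GENCODE vM21 on GRCm38, and promoter windows are those of RefSeq on GRCm38.p6.

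The members and lists were chosen with earlier results of these data known, the lists being written by hand from general knowledge. Genes named in full are the 12 largest changes past the threshold, the 3 smallest differences, the scaffolds, and of each other list the 3 largest changes and 7 fixed genes. Values of other genes in full, such as Qars, Nars and Lars2, and other genes of the lists were chosen after they were seen. A few items that the rule covers, and a row each of 2 plots, are not reported here. Alternatives were a fit without the trend, no limit on the mean, a limit of 5, median centring and quantile normalization. Others were leaving out each sample, counting the pair of shared number as 1 sample, a threshold of 0.01 and an additional log2 difference of 1. The rlog step shrinks differences of genes with few reads, and without counts no counting error or depth limit can be given.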

Additional observations from a re-analysis of the deposited data

How the results depend on the processing

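No paired analysis was possible because nothing links a numbered title to a numbered column, and a fit with a replicate block was not made. Of the 23 falls, 15 passed in each of the 12 other fits at the threshold of 0.05. The other 8 were Nars2, Ears2, Wars, Farsa, Aars, Tarsl2, Lars and Hars. At 0.05 without a limit on size, the number of synthetases that fell lay between 17 and 23 (5778 genes in all, and from 4734 to 6228 with a sample left out), and 0 or 1 rose. At a threshold of 0.01, 15 fell (9 cytosolic), and with a log2 difference of at least 1 the count was 0 for all 38, for both compartments, for the complex and for tRNA maturation in both directions, while 693 genes passed in all, 215 lower and 478 higher.

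The median of the 38 genes was −0.26 and lay at −0.29 after median centring, which moved the median of all genes by less than 0.1. The median of the 38 was −0.21 with the pair of shared number as 1 sample, and from −0.27 to −0.20 with a sample left out. With a sample left out, from 9 to 15 cytosolic and from 6 to 8 mitochondrial genes fell, from 5 to 6 of the complex, from 7 to 13 of the amino acid response and from 9 to 13 of tRNA maturation, and 0 to 1, 0 to 1, 0 to 1, 7 to 11 and 1 to 2 rose. Of the amino acid response, 8 fell without a limit on the mean, 8 with the shared number as 1 sample, 7 at 0.01 and 1 (with 3 rises) at a log2 difference of 1. Of tRNA maturation, 1 gene rose without a limit, after median centring, after quantile normalization and at 0.01, and 3 with a limit of 5.

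Signs turned only in genes that did not pass. Iars2 was at −0.026 after median centring and from −0.011 to 0.019 with a sample left out, Sars at 0.019 with the shared number as 1 sample and from −0.10 to 0.047 with a sample left out, and over the latter fits Mars2 went from −0.19 to 0.0027, Pars2 from −0.12 to 0.068, Hars2 from −0.082 to 0.13 and Fars2 from −0.025 to 0.29.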
